A study of Ovis aries and Bos taurus with 15 samples.

Results

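Levels are described for 9 coagulation and fibrinolysis genes of endothelium: F5, F3, F2R, VWF, THBD, PROCR, TFPI, PLAT and PLAU. The rule took every probe set whose platform annotation gave exactly 1 gene symbol, that of a member. It found 14 probe sets for all 9 genes, of 24016 probe sets tested and 9155 genes named. F2R and TFPI had 3 probe sets each, VWF had 2 and the other genes had 1. Both dimmer TFPI probe sets were designed from the same transcript entry.

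RNA was measured on 15 Affymetrix arrays with bovine probes, 1 array per sample and 5 per group. The groups were bovine cells labelled BAEC, for which the labels give no treatment, ovine PAEC exposed to 5 µM GW9662 for 24 h, and ovine PAEC exposed to its DMSO vehicle for 24 h. PAEC are the pulmonary endothelial cells of the study's title, all cells were grown in DMEM with serum, and GW9662 blocks the nuclear receptor PPARγ irreversibly. Values are log2 expression values from RMA, which gives no detection call. A group mean under 3 was counted as at the array floor, where weak and absent expression look alike, and 45.9% of probe sets lay there over the 15 arrays.

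Resting endothelium keeps blood fluid. Clotting starts when tissue factor (F3) meets plasma factors, and factor V (F5) is the cofactor with which factor Xa makes thrombin. Thrombin activates cells through PAR1 (F2R). Thrombomodulin (THBD) and the endothelial protein C receptor (PROCR) turn thrombin towards activating protein C, TFPI blocks the tissue factor pathway, VWF tethers platelets, and the activators tPA (PLAT) and urokinase (PLAU) convert plasminogen to the fibrin-degrading plasmin.

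Most endothelial markers were above the floor: of 16 listed, 13 were named, of which 13 in bovine controls, 12 with GW9662 and 11 with vehicle had such means. Their summed linear signal ran from 13992 to 15298 in bovine controls, from 10675 to 11839 with GW9662 and from 11856 to 13083 with vehicle. PECAM1 averaged 11.7, 11.5 and 11.6 and CDH5 11.6, 11.3 and 11.5 in the bovine control, GW9662 and vehicle groups. CLDN5, of tight junctions, was at the floor in both ovine groups (5.03 in bovine controls, 2.43 with GW9662 and 2.45 with vehicle). The VEGF receptor KDR lay near or under the floor in each group (3.08, 3.79 and 2.64), and PLVAP near it in ovine cells (6.57, 3.18 and 3.34). All 6 named leukocyte markers in bovine controls and 5 of 6 in ovine cells were at the floor, the exception being CD14 (2.27 in bovine controls, 6.72 with GW9662 and 6.69 with vehicle). Both named platelet markers were at the floor in each group. Of 6 smooth muscle and 6 fibroblast markers, 5 and 4 were at the floor in each group. TAGLN (9.0, 7.16 and 7.18), COL1A2 (11.2, 10.4 and 10.3) and COL3A1 (10.4, 10.6 and 10.4) were the rest, in the order bovine control, GW9662 and vehicle. Of 4 hepatocyte markers SERPINA1 was at the floor, while ALB read 11.1, 11.2 and 11.2, TTR 3.02, 7.45 and 7.46 and APOA1 7.76, 5.69 and 5.83 in that order. All 3 named lymphatic markers and 4 of 5 epithelial markers were at the floor. The part of other cell types in the results below was not tested. In bulk RNA, fewer cells of a type and less RNA per cell cannot be told apart.

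Vehicle replicate 1 stood apart from its group, with an SD of 0.222 from the group mean over all probe sets against 0.104 to 0.143 on the other 14 arrays. The 3′ minus 5′ difference of 6 control transcripts, a measure of RNA quality, averaged 0.881 ± 0.043 in bovine controls, 0.956 ± 0.074 with GW9662 and 1.18 ± 0.085 with vehicle (SD, n = 5 each). It was lower than with vehicle in both other groups (two-sided exact permutation p = 0.00794 each, the smallest possible with 5 against 5 arrays), so it moved with both comparisons below, and its part in them was not tested beyond a fit that includes it. The control probe sets of this measure are bovine, so between species it cannot be told apart from the match of RNA to probes. The labels do not say whether replicates were separate cultures or animals. P-values then measure only the spread between these samples, which may be technical.

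Across the 3 groups, the coagulation and fibrinolysis genes fell into 3 patterns. There were 6 genes (F2R, THBD, PROCR, TFPI, PLAT and PLAU) above the floor in all groups, F5 was bright in bovine controls and at the floor in both ovine groups, and 2 genes (F3 and VWF) were at the floor throughout. Bovine arrays did not overlap with those of either ovine group for F5, F2R, THBD, PROCR, PLAT and PLAU. The same held for the brighter VWF probe set, though its means were all at the floor. Such separation was common, as bovine and vehicle arrays did not overlap in 53% of all probe sets. No such share is given for bovine control against GW9662.

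**Figure D1:**
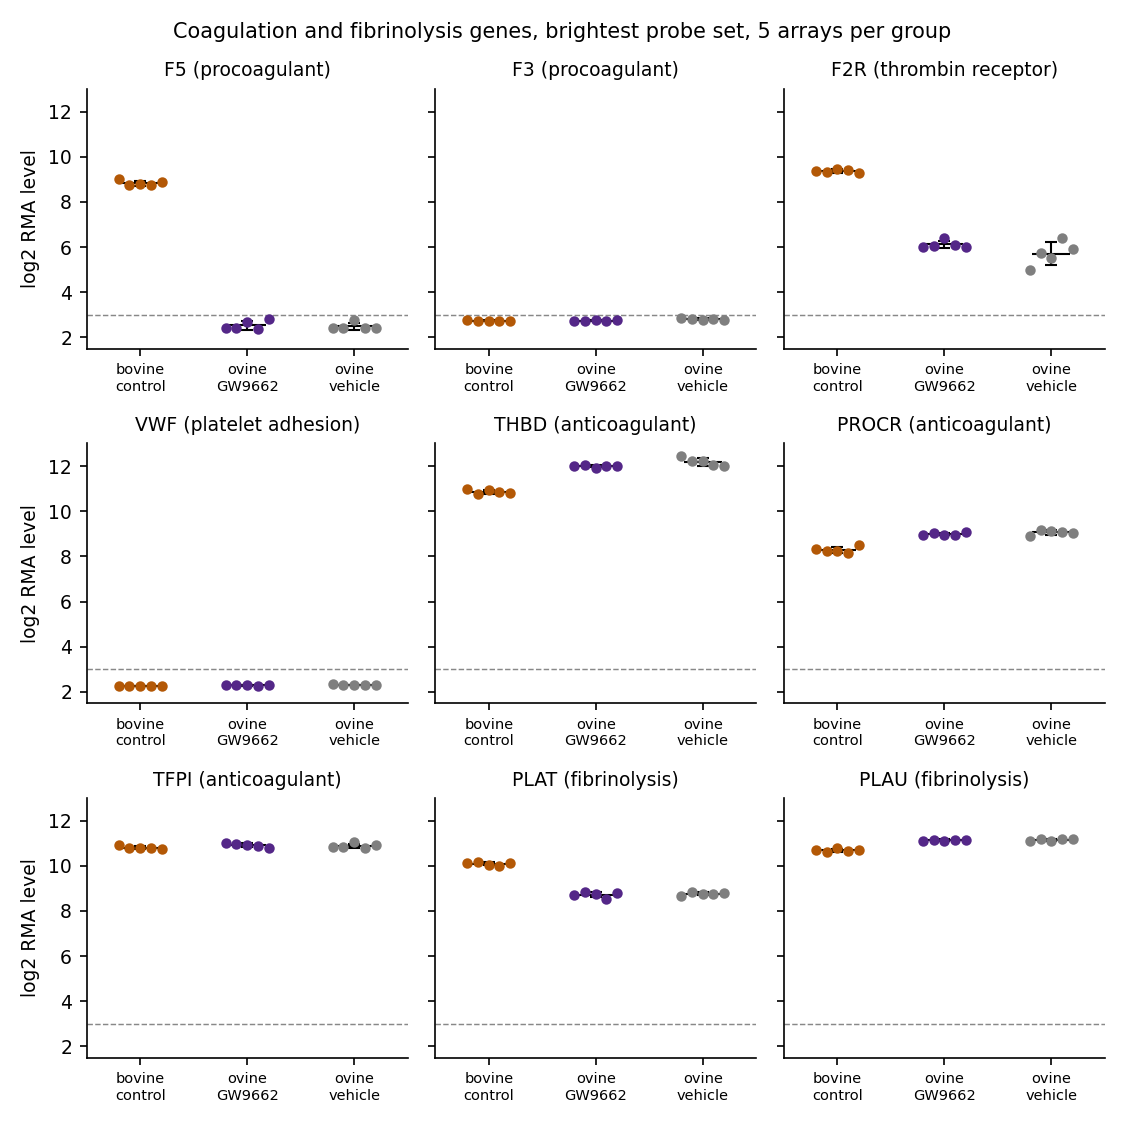
Log2 RMA levels of the 9 genes on each array (points), with group mean and SD (bars), for bovine control, ovine GW9662 and ovine vehicle; the dashed line is the floor of 3. F5 sits near 8.83 in bovine controls and under 3 in both ovine groups, while F3 and VWF lie under the line in all 15 arrays.

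Among the procoagulant genes, F5 read 9.01, 8.75, 8.78, 8.73 and 8.88 in bovine controls, 2.40, 2.40, 2.67, 2.39 and 2.82 with GW9662, and 2.43, 2.43, 2.79, 2.42 and 2.41 with vehicle. Every bovine array lay far above every ovine array, and the ovine groups overlapped. The log2 difference of bovine controls from vehicle was 6.33 (SE 0.086, adjusted p = 1.5e-10). The ovine means were at the floor, so the size of this difference is not a measured fold. How well sheep RNA matched these bovine probes was not tested and cannot be told apart from its level, so the value sets no bound on expression.

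F3, encoding tissue factor, was at the floor everywhere, between 2.71 and 2.79 in bovine controls, between 2.74 and 2.76 with GW9662 and between 2.76 and 2.84 with vehicle. Its group means of 2.75, 2.75 and 2.80 lay within 0.06 of each other. These arrays therefore do not show whether tissue factor differed between the groups. F3 did not pass in either comparison (-0.05 for GW9662 minus vehicle, adjusted p = 0.217; -0.06 for bovine control minus ovine vehicle, adjusted p = 0.0577). The second value passed without bovine control replicate 1 (adjusted p = 0.0421), without vehicle replicate 3 (0.0351) and without vehicle replicate 5 (0.0430), and in a fit of all 15 arrays (0.0185), still at the floor.

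F2R, the thrombin receptor PAR1, read 9.36, 9.31, 9.48, 9.43 and 9.27 on its brightest probe set in bovine controls, 6.02, 6.07, 6.38, 6.11 and 6.02 with GW9662, and 4.98, 5.74, 5.51, 6.40 and 5.92 with vehicle. All bovine arrays lay above all ovine arrays, and the vehicle arrays were spread more widely (SD 0.52) than the GW9662 arrays (SD 0.15). Both groups being above the floor, the bovine controls were higher than vehicle by 3.66 (SE 0.22, adjusted p = 2.5e-06).

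The other 2 F2R probe sets gave the same direction with other sizes. The middle one averaged 7.30 ± 0.053 in bovine controls, 4.22 ± 0.20 with GW9662 and 4.10 ± 0.057 with vehicle, and was higher in bovine controls than with vehicle by 3.20 (SE 0.034, adjusted p = 4.4e-11). The dimmest averaged 5.61 ± 0.35, 4.11 ± 0.14 and 4.17 ± 0.38 in the same order, with a difference of 1.45 (SE 0.22, adjusted p = 0.000902). The F2R signal was thus higher in bovine controls on each of its 3 probe sets, by 1.45 to 3.66. How well sheep RNA matched each probe set was not tested. In a fit that also held the RNA quality measure, the dimmest gave 1.83 and fell short of the threshold (adjusted p = 0.140).

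**Figure D2:**
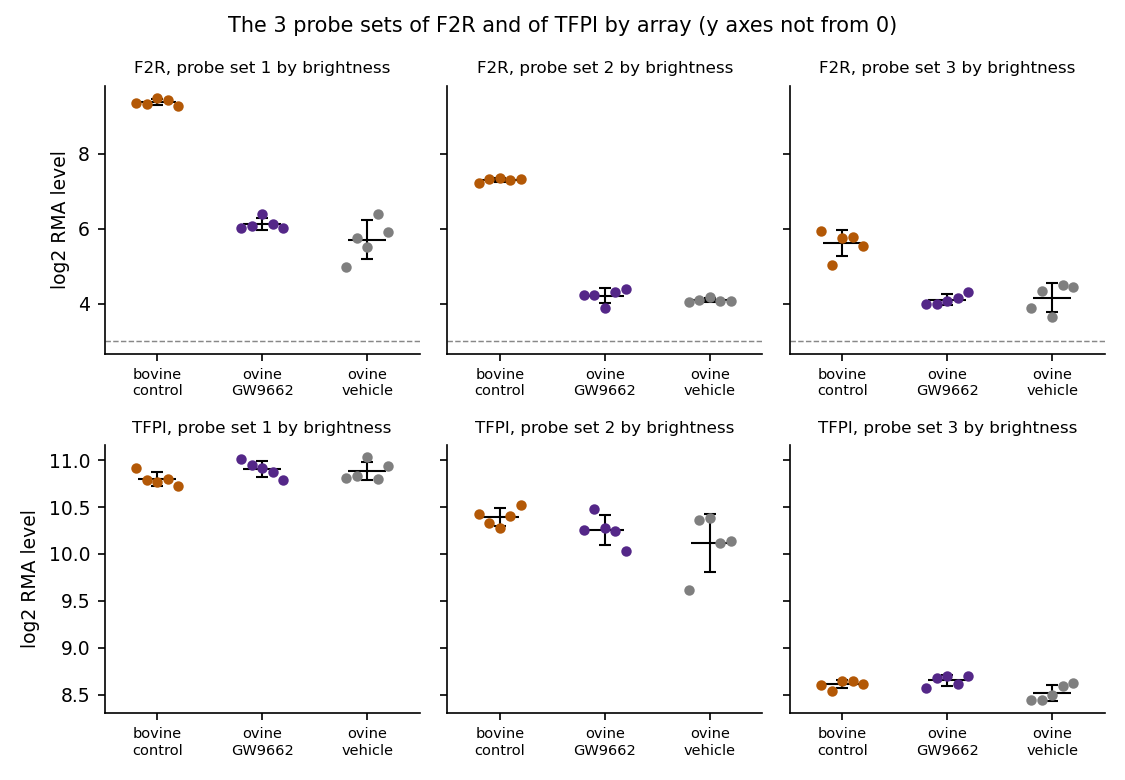
Log2 RMA levels by array for the 3 probe sets of F2R (top, floor of 3 dashed) and of TFPI (bottom), ordered by brightness, with group mean and SD. The bovine arrays lie above all ovine arrays in each F2R probe set, whereas the groups overlap in each TFPI probe set.

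VWF, the platelet tether stored in endothelial Weibel-Palade bodies, was at the floor on both probe sets and all 15 arrays, with values between 2.21 and 2.34. The brighter one averaged 2.28 in bovine controls, 2.29 with GW9662 and 2.31 with vehicle. VWF thus gave no signal with which to check the endothelial labels, while PECAM1 and CDH5 were bright. Its difference of -0.03 between bovine control and vehicle passed the threshold (SE 0.011, adjusted p = 0.0374) at the floor. That call was lost in 12 of 18 alternatives, among them leaving out any 1 bovine control array, vehicle replicate 2 or vehicle replicate 4 (adjusted p between 0.0554 and 0.0728). The sign turned after median centring (0.00050) and in the fit that held the RNA quality measure (0.014). The second probe set was at -0.0015 (adjusted p = 0.946).

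THBD, encoding thrombomodulin, read 10.97, 10.74, 10.94, 10.83 and 10.83 in bovine controls, 11.9997, 12.06, 11.92, 11.99 and 12.01 with GW9662, and 12.44, 12.21, 12.23, 12.05 and 12.03 with vehicle. No bovine array reached any ovine array, while GW9662 and vehicle arrays overlapped. Bovine controls were lower than vehicle by a log2 difference of -1.33 (SE 0.081, 95% interval -1.51 to -1.14, adjusted p = 2.4e-06).

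PROCR, the receptor that presents protein C to the thrombin and thrombomodulin complex, followed the same order. It read 8.33, 8.25, 8.25, 8.16 and 8.49 in bovine controls, 8.96, 9.03, 8.95, 8.95 and 9.09 with GW9662, and 8.89, 9.18, 9.13, 9.10 and 9.04 with vehicle. Bovine controls lay below all ovine arrays, by -0.77 against vehicle (SE 0.071, adjusted p = 3.7e-05). The signal of both receptors of the protein C pathway was therefore lower in bovine controls than in ovine vehicle cells.

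TFPI, the inhibitor of the tissue factor pathway, did not pass in either comparison on any probe set. The brightest averaged 10.8 ± 0.071 in bovine controls, 10.9 ± 0.085 with GW9662 and 10.9 ± 0.098 with vehicle. Its bovine minus vehicle difference was -0.08 (95% interval -0.20 to 0.03, adjusted p = 0.196), and the other probe sets were at 0.27 (95% interval -0.04 to 0.58) and 0.09 (adjusted p = 0.127 and 0.0893). Signs differed between probe sets and the arrays overlapped between groups. Without vehicle replicate 5 the dimmest probe set passed at 0.12 (adjusted p = 0.0359). On the middle probe set, vehicle replicate 1 read 9.61 and the other vehicle arrays 10.12 to 10.38. Without that array the middle difference was 0.14 (adjusted p = 0.140), and in the fit that held the RNA quality measure it was -0.51 (adjusted p = 0.347).

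The plasminogen activators differed between bovine and ovine cells in opposite directions. PLAT, encoding tissue plasminogen activator, read 10.12, 10.17, 10.05, 9.98 and 10.14 in bovine controls, 8.68, 8.85, 8.74, 8.54 and 8.78 with GW9662, and 8.68, 8.85, 8.76, 8.73 and 8.78 with vehicle. It was higher in bovine controls than with vehicle by 1.34 (SE 0.043, adjusted p = 2.9e-08), with no overlap.

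PLAU, encoding urokinase, read 10.69, 10.63, 10.77, 10.64 and 10.69 in bovine controls, 11.08, 11.16, 11.12, 11.16 and 11.16 with GW9662, and 11.11, 11.18, 11.11, 11.20 and 11.18 with vehicle. The bovine arrays lay below all ovine arrays, by -0.47 against vehicle (SE 0.030, adjusted p = 3.1e-06). Among the 9 genes this was the smallest of the differences called above the floor, and 83.9% of all probe sets differed by less.

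**Figure D3:**
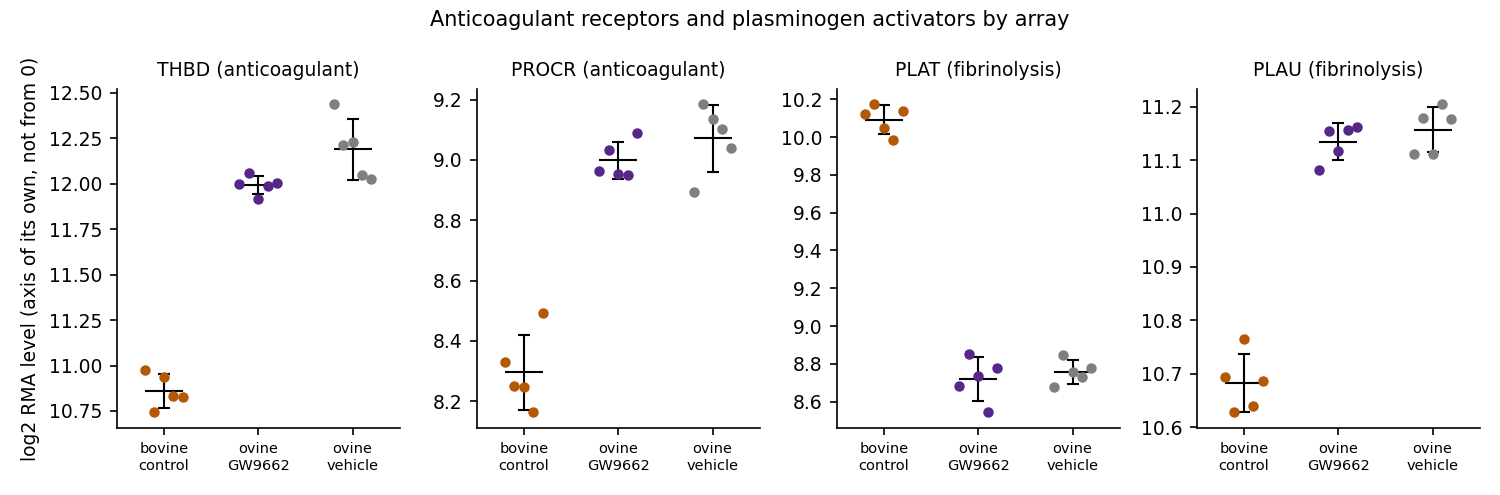
Log2 RMA levels of THBD, PROCR, PLAT and PLAU by array with group mean and SD, each panel on its own axis that does not begin at 0. Bovine controls lie below both ovine groups for THBD, PROCR and PLAU and above them for PLAT, and the ovine groups overlap in all 4 panels.

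The first comparison asked whether blocking PPARγ changed these genes in ovine PAEC. None of the 14 probe sets passed with GW9662 in limma (0 higher, 0 lower, 3 at an unadjusted p under 0.05, beside 21.4% of all probe sets), where 0.183% of all probe sets did, 0.146% higher and 0.0375% lower. Their log2 differences ran from -0.20 to 0.41 with a median of -0.02, the median over all probe sets being -0.02. The lowest adjusted p was 0.217.

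The interval of each difference shows what sizes remained possible. THBD was at -0.20 (95% interval -0.36 to -0.03, adjusted p = 0.218), 11.99 ± 0.051 with GW9662 against 12.19 ± 0.17 with vehicle. The brightest F2R probe set was at 0.41 (95% interval -0.11 to 0.94, adjusted p = 0.283), and its other probe sets at 0.12 and -0.06 (adjusted p = 0.366 and 0.831), so its probe sets disagree in sign. Without vehicle replicate 1 the brightest was at 0.23 (adjusted p = 0.420), and in the fit that held the RNA quality measure at 0.14. Among the 9 genes, F2R is the one whose interval reached farthest from 0.

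PROCR was at -0.07 (95% interval -0.20 to 0.05), PLAT at -0.04 (-0.17 to 0.09) and PLAU at -0.02 (-0.08 to 0.03), with adjusted p of 0.382, 0.650 and 0.526. For these 3 genes the interval lies within 0.20 on the log2 scale on either side of 0. The dimmest TFPI probe set was at 0.13 (95% interval 0.04 to 0.23, adjusted p = 0.217) and the brightest at 0.02 (-0.10 to 0.15, adjusted p = 0.769). The middle one was at 0.14 (95% interval -0.20 to 0.47, adjusted p = 0.533), and at 0.0080 without vehicle replicate 1. F5 was at 0.04 with both groups at the floor (adjusted p = 0.804). Arrays of the ovine groups did not overlap in 2 of the 14 probe sets, both of VWF and at the floor, where 14.6% of all probe sets did not. None of the 14 passed in limma without vehicle replicate 1 (4 at an unadjusted p under 0.05). In the fit that held the RNA quality measure none passed either (1 at an unadjusted p under 0.05), beside 0 of all 24016 probe sets. That measure did not overlap between the ovine groups (0.853 to 1.04 with GW9662, 1.07 to 1.30 with vehicle). The latter fit therefore cannot decide whether these genes changed.

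**Figure D4:**
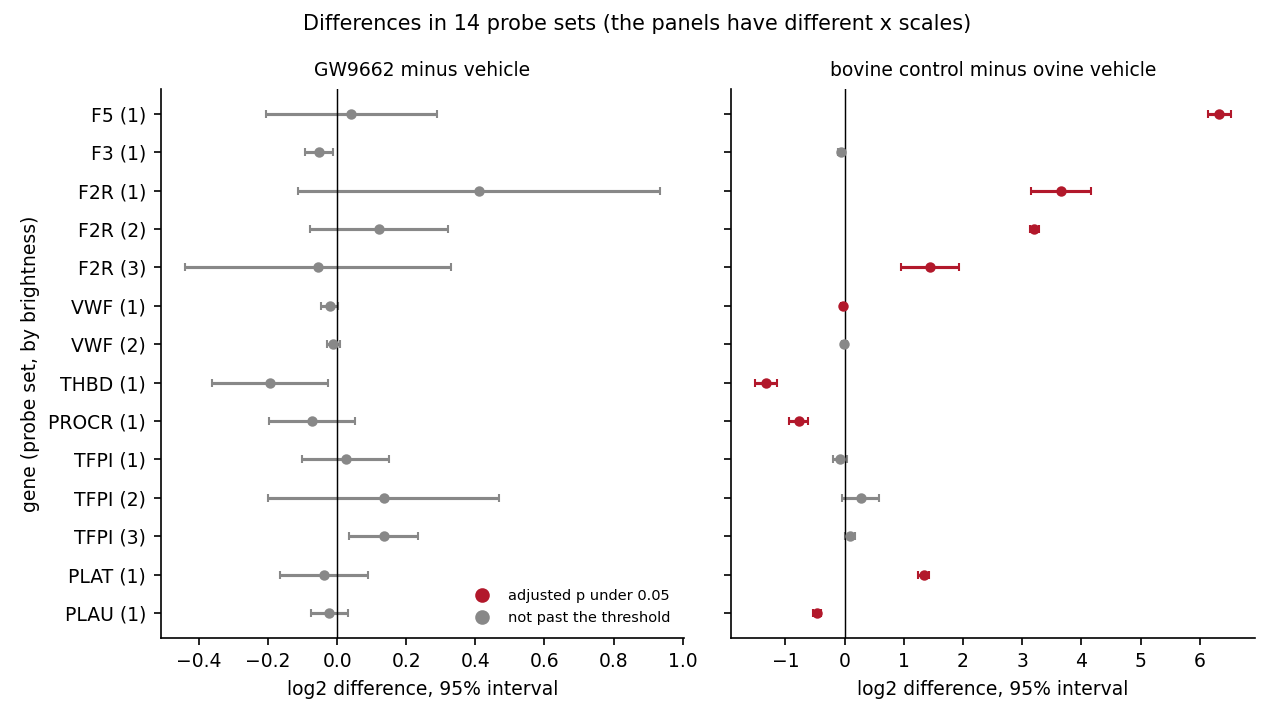
Log2 differences with 95% intervals for the 14 probe sets, for GW9662 minus vehicle (left) and bovine control minus ovine vehicle (right), on different x scales; red marks an adjusted p under 0.05 and numbers in brackets rank the probe sets of a gene by brightness. No interval on the left belongs to a called probe set, and 9 do on the right.

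The second comparison set the bovine controls against the ovine vehicle cells, whose arrays also enter the GW9662 comparison. Species, source of the cells, exposure to DMSO and the match of RNA to probes cannot be told apart here. Of the 14 probe sets, 5 were higher and 4 lower in bovine controls in limma, beside 45.2% of all probe sets called, 15.6% higher and 29.6% lower. By the brightest probe set, 7 of 9 genes were called (F5, F2R and PLAT higher, THBD, PROCR, PLAU and the floor value of VWF lower), beside 49.2% of 9155 genes. A difference past the threshold was thus common between these cells, and the members' share is read against that.

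Of the 14 probe sets, 6 passed with a difference of at least 2-fold, beside 5.43% of all: F5, the 3 of F2R and PLAT higher, and THBD lower. The 3 of F2R measure 1 gene. The share over all includes the 45.9% of probe sets at the floor, while 6 of the 9 genes were above it in all groups. Members were also chosen with earlier results known, so no excess is read from these shares. Arrays did not overlap in 9 of the 14, beside 53% of all. Against the GW9662 arrays in place of vehicle, 5 were higher and 3 lower of the 14, beside 29.4% of all probe sets called, 14.6% higher and 14.8% lower, with F5 at 6.29, the brightest F2R probe set at 3.25, PLAT at 1.37, THBD at -1.13, PROCR at -0.70 and PLAU at -0.45. The order of levels was therefore bovine above both ovine groups for F5, F2R and PLAT and below both for THBD, PROCR and PLAU, and the neighbouring ovine groups did not differ past the threshold for any of them.

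In a fit that also held the RNA quality measure, chosen after seeing the data, 7 of the 14 passed, beside 1601 of all 24016 probe sets. Bovine and vehicle arrays did not overlap in that measure (0.843 to 0.942 against 1.07 to 1.30), so this fit separates it from group only weakly. F5 was then at 6.05, the brightest F2R probe set at 2.99, PLAT at 1.26, THBD at -0.98, PROCR at -1.05 and PLAU at -0.43 (adjusted p between 5.5e-06 and 0.0214). Without vehicle replicate 1, and without that term, the count was 9.

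Genes with the profile most like a member were sought among 9146 other genes for the 4 members whose group means spanned over 1. Likeness was the root mean square difference over the 15 arrays after centring each probe set. For F5 they were ADCY2 (0.311) and PRSS2 (0.436), for F2R PSAT1 (0.272) and LOC100196901 (0.308), for THBD C5H12orf57 (0.0819) and ADPGK (0.0900), and for PLAT CD93 (0.0684) and NR2F2 (0.0876). ADCY2 averaged 8.63 in bovine controls, 2.82 with GW9662 and 2.77 with vehicle, at the floor in ovine cells as F5 was. CD93 averaged 12.1, 10.8 and 10.8 in the same order.

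Of 64 other genes of the pathway, 45 were named, and 0 passed with GW9662 in limma (13 at an unadjusted p under 0.05, beside 20.1% of named genes), beside 0.218% of named genes. Their median was -0.02, beside -0.01 over all named genes. By list, 0 of 12 coagulation factors and processing genes, 0 of 9 anticoagulants, 0 of 7 fibrinolysis genes, 0 of 11 genes of thrombin receptors, Weibel-Palade bodies and platelet contact, and 0 of 6 transcription factors passed, with medians of -0.03, -0.01, -0.02, -0.01 and 0.09.

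The gene of smallest p in each list was VKORC1, the vitamin K recycling enzyme (-0.15, adjusted p = 0.217), SERPINE2, protease nexin that inhibits thrombin (0.43, 3.16 with GW9662 against 2.73 with vehicle, adjusted p = 0.156), plasminogen PLG at the floor (-0.02, adjusted p = 0.260), P-selectin SELP (-0.24, 7.56 against 7.80, adjusted p = 0.217) and the endothelial factor ERG (-0.10, adjusted p = 0.217). VKORC1 passed without vehicle replicate 4 (-0.20, adjusted p = 0.0256). Among these 5, SERPINE2 was the one whose groups did not overlap, and its vehicle mean was at the floor. Such separation was found in 14.6% of all probe sets.

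Between bovine controls and ovine vehicle, 6 of these 45 genes were higher and 20 lower, beside 21.9% and 27.3% of named genes. After median centring 6 were higher and 12 lower. Both groups were at the floor for 8 of the 20, among them the fibrinogen gamma chain FGG (-0.05), prothrombin F2 (-0.09), factor XIII B chain F13B (-0.07), and the inhibitors SERPINA10 (-0.03) and SERPIND1 (-0.02), with adjusted p between 0.0171 and 0.0460. Each of these 5 plasma proteins is made mainly by the liver, and each lost its call in 5 or more of 18 alternatives. Of the 26 genes above the floor in at least 1 group, 6 were higher and 12 lower, and their median was -0.15.

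Of 12 coagulation factors and processing genes, 0 were higher and 5 lower (median -0.05), and VKORC1 was the one above the floor, at 8.43 ± 0.073 in bovine controls and 9.21 ± 0.12 with vehicle (-0.77, SE 0.059, adjusted p = 1.1e-05). In the fit that held the RNA quality measure VKORC1 was at -0.63 and did not pass (adjusted p = 0.0580). Of 9 anticoagulants, 0 were higher and 4 lower (median -0.03). PROS1, encoding protein S, the cofactor of activated protein C, averaged 11.50 ± 0.054 in bovine controls and 12.63 ± 0.021 with vehicle (-1.13, SE 0.026, adjusted p = 3.5e-09). TFPI2, a relative of TFPI, averaged 11.09 ± 0.060 in bovine controls and 12.04 ± 0.079 with vehicle (-0.95, SE 0.043, adjusted p = 3.1e-07). PROC, the protein C gene itself, chosen after its values were seen, had both means at the floor and did not pass (-0.30, adjusted p = 0.374). It averaged 2.22 ± 0.052 in bovine controls and 2.52 ± 0.66 with vehicle. Whether a single array made the large vehicle SD was not examined.

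Of 7 fibrinolysis genes, 2 were higher and 3 lower (median -0.02). S100A10 (0.24) and ANXA2 (-0.14), which together form a receptor for plasminogen and tPA on the cell surface, moved in opposite directions (adjusted p = 2.1e-05 and 0.00673). ENO1, a glycolytic enzyme that also binds plasminogen, was higher by 0.30 (adjusted p = 0.00245). PLAUR, the receptor of urokinase, was lower (log2 difference -0.68), at 4.58 ± 0.18 in bovine controls and 5.26 ± 0.34 with vehicle (adjusted p = 0.0119), the same direction as PLAU. In the fit that held the RNA quality measure PLAUR was at -1.01 and S100A10, ANXA2 and ENO1 at 0.18, -0.12 and 0.37, and none of these 4 passed (adjusted p between 0.0971 and 0.603).

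Of 11 genes of thrombin receptors, Weibel-Palade bodies and platelet contact, 2 were higher and 6 lower (median -0.14). SELP, the platelet and leukocyte adhesion molecule of Weibel-Palade bodies, averaged 3.87 ± 0.22 in bovine controls and 7.80 ± 0.13 with vehicle (-3.94, SE 0.11, adjusted p = 1.1e-08). ENTPD1, which degrades the platelet agonist ADP, and the granule protein CD63 were lower, with log2 differences of -0.62 and -0.16 (adjusted p = 3.8e-05 and 0.000380). THBS1, encoding thrombospondin, was at -0.58 on its brightest probe set (adjusted p = 2.5e-05), and 2 of its other probe sets passed in the same direction (-1.71 and -0.52) and 2 in the opposite one (0.60 and 0.75), so its direction is unsettled. F2RL1, the protease-activated receptor PAR2, chosen after its values were seen, was higher by 1.79, at 4.45 ± 0.83 in bovine controls and 2.66 ± 0.017 with vehicle (adjusted p = 0.00422). Its vehicle mean was at the floor. RAB27A, which acts in Weibel-Palade body traffic, was likewise chosen after its values were seen. It was higher by 0.72 (adjusted p = 0.000406), and its second probe set by 0.86. In the fit that held the RNA quality measure RAB27A was at 0.32, F2RL1 at 2.24 and CD63 at -0.13. None of them passed there (adjusted p between 0.289 and 0.579).

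Of 6 transcription factors known to act on genes of this kind, 2 were higher and 2 lower (median 0.05). KLF4, an activator of THBD in endothelium, averaged 6.07 ± 0.11 in bovine controls and 9.22 ± 0.14 with vehicle (-3.16, SE 0.077, adjusted p = 5.1e-09). EGR1, an immediate early factor, was higher by 1.11, ERG was lower (-0.20) and the NF-κB subunit RELA higher by 0.33 (adjusted p = 0.00881, 0.000932 and 0.0235). RELA did not pass without bovine control replicate 1, 2 or 5 (adjusted p = 0.0544, 0.0542 and 0.0519). In the fit that held the RNA quality measure 7 of the 45 genes passed, 0 higher and 7 lower, beside 1601 of all 24016 probe sets. EGR1 (0.76, adjusted p = 0.731), ERG (-0.29, adjusted p = 0.0605) and RELA (0.05, adjusted p = 0.9996) did not pass in it. Bovine and vehicle arrays did not overlap in that measure, so a lost call there need not mean a smaller difference. KLF4, SELP, PROS1, TFPI2, ENTPD1, THBS1 and RAB3D kept their calls in all 19 alternatives run on them.

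**Figure D5:**
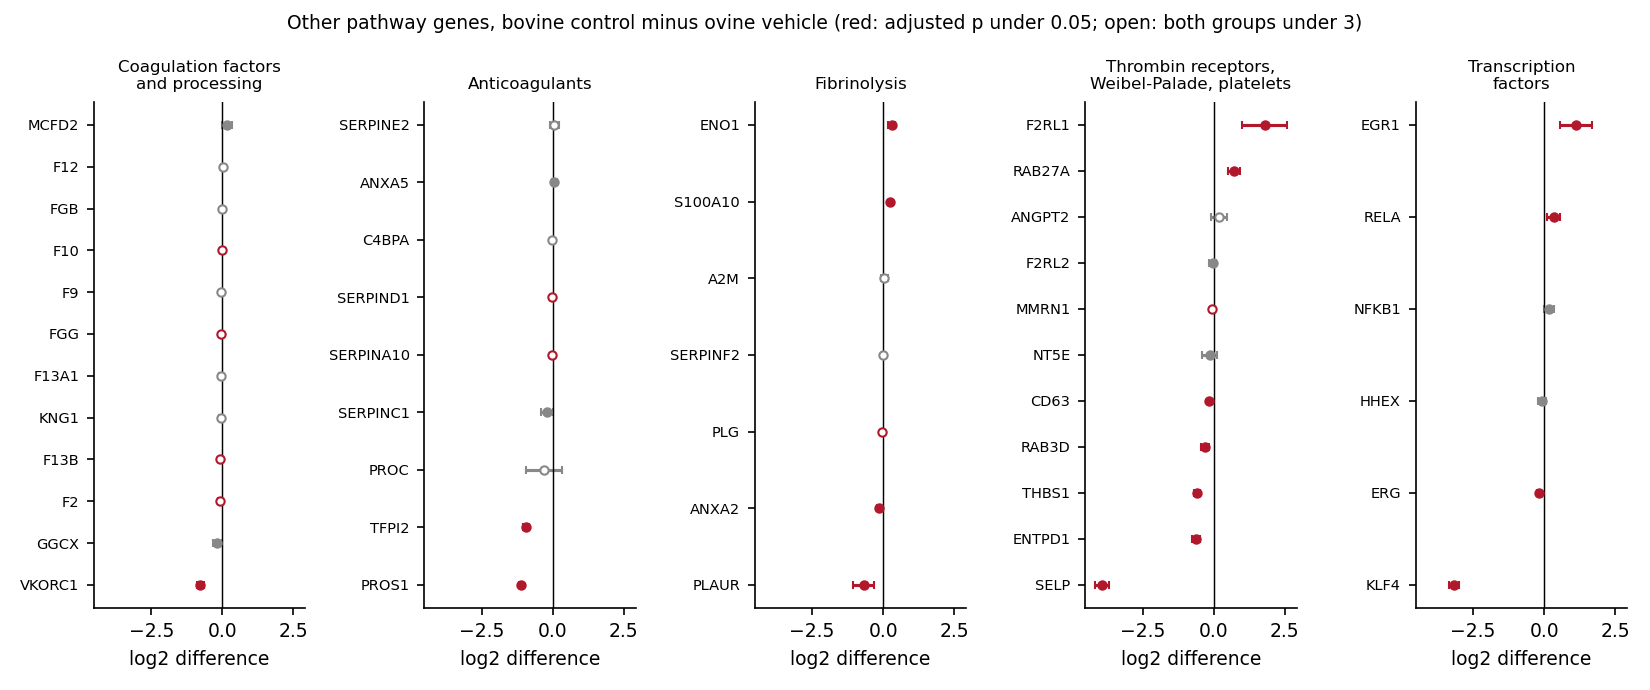
Log2 differences with 95% intervals of the 45 named genes of the 5 pathway lists, bovine control minus ovine vehicle; red marks an adjusted p under 0.05 and open circles genes with both group means under 3. SELP (-3.94) and KLF4 (-3.16) lie farthest to the left and F2RL1 (1.79) farthest to the right.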

How the data were processed

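The deposited values are log2 expression values that the authors made with RMA, per the submitters' processing notes, with no version given. RMA corrects background, quantile-normalises arrays and summarises each probe set; quantile normalisation can hide shifts shared by most genes. After 112 control probe sets were left out, 24016 remained, and limma 3.58.1 (R 4.3.3; lmFit, eBayes) was run on the 10 arrays of each comparison. P-values were adjusted by Benjamini-Hochberg over all probe sets, with a threshold of 0.05, and adjusted p-values are limma's. The fits were tested on simulated data. In the platform annotation 13292 probe sets had 1 symbol, 86 several and 10638 none. For pathway genes the brightest probe set of the fit stood for the gene, and up to 4 called genes per list and comparison, or 1 where none passed, were named by smallest p. All member probe sets were named, with the 2 genes nearest in profile to members spanning over 1 between group means. Array data have no sequencing depth, so the number of arrays sets the precision. Alternatives left out each array in turn, took GW9662 arrays in place of vehicle, centred or quantile-normalised the arrays again, dropped dim probe sets, averaged a gene's probe sets, moved the floor, weighted arrays, used a trended variance, pooled all groups, or added the replicate number or the RNA quality measure as a term. Members, lists and tests were chosen with earlier results of these data known. No 2 arrays were identical.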

Additional observations from a re-analysis of the deposited data

Results flagged for a closer look

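Of 45 groups of 5 arrays examined, 5 held an array far from the others of its group, where chance gives about 1 in 20. F5 read 2.79 in vehicle replicate 3, against 2.41 to 2.43 on the other vehicle arrays, all at the floor. The brightest F2R probe set read 6.38 in GW9662 replicate 3, against 6.02 to 6.11 on the other GW9662 arrays. The other 3 were VWF values at the floor: 2.34 in vehicle replicate 1 (others 2.30 to 2.31), 2.30 in bovine control replicate 2 (others 2.21 to 2.23) and 2.22 in GW9662 replicate 4 (others 2.23).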

How the results depend on the processing

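The count of member probe sets past the threshold stayed at 0 for GW9662 under every alternative run, the replicate block (0) and leaving out each array (0 to 0) included. For bovine control minus ovine vehicle it was 8 with the replicate block, 8 to 11 without single arrays and 6 to 10 under the other settings. The VWF difference turned to 0.000498 with centring and 0.014 with the 3′ minus 5′ covariate. Pathway calls for GW9662 were 0 to 1 without single arrays and 0 with the block; for bovine control minus ovine vehicle they were 19 to 27 without single arrays, 15 with the replicate block and 7 with the covariate. With a floor of 2.5, 1 member was at the floor in all groups. Over all probe sets the GW9662 count of 44 ranged from 0 (block or covariate) to 237 (all 15 arrays); the bovine against ovine count of 10860 became 6455 with centring (3740 higher, 2715 lower, beside 3740 and 7120), 5396 with the block and 1601 with the covariate. The causes were not tested. The 3′ minus 5′ difference between GW9662 and vehicle was -0.25 to -0.19 without single arrays. Replicate numbers are not said to pair arrays, and the deviations of same-numbered arrays correlated between -0.19 and 0.17, with no array closest to its own number. With the replicate block the 3′ minus 5′ difference between GW9662 and vehicle stayed at -0.22 (two-sided exact sign-flip p = 0.0625, the smallest that 5 pairs allow), an alternative chosen after seeing the data. Under the block PLAUR, EGR1 and RELA did not pass (adjusted p = 0.0651, 0.0512 and 0.0536). RMA values hold no signal over background, which limits F3, VWF and the ovine F5 values.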
